A study of Mus musculus with 6 samples.

Results

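Hemoglobin is built from alpha and beta globin chains that each hold a heme, and a developing red cell makes the chains and the heme together. Heme synthesis starts and ends in the mitochondrion. The first enzyme, 5-aminolevulinate synthase, has a form made in all cells (Alas1) and an erythroid form (Alas2), Alad joins the products of that step in the cytosol, and ferrochelatase (Fech) inserts iron in the last step. In bone marrow, globin RNA builds up as erythroid cells mature.

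The adult globin chains Hba-a1, Hba-a2, Hbb-bs and Hbb-bt, the alpha globin chaperone Ahsp and the heme enzymes Alas1, Alas2, Alad and Fech were looked up by symbol in a count table of 26027 genes. Of these 9 genes, 8 had a row and all 8 passed the filter on low counts, and Ahsp was not analysed here. The table holds RNA-seq counts of Lin-/cKit+/eYFP+ cells, labelled immature multipotent progenitors, from whole bone marrow of C57BL/6 mice. Of the 6 libraries, 3 came from Srsf2 P95H/+ mice and 3 from Srsf2 +/+ mice (WT). Mice of both genotypes carried hScl-CreERT, a Cre that tamoxifen activates, and R26eYFP, a reporter of recombination, and both were given tamoxifen. Srsf2 encodes a splicing factor of the SR family. The sort on eYFP kept cells in which the reporter had recombined. The Cre is named for Scl, also called Tal1, a regulator of blood and red cell genes, and the cells it is active in are not described in the labels. P95H/+ replicates 1, 2 and 3 were a female, a female and a male, all of 32 weeks. WT replicates 1, 2 and 3 were a female of 54 weeks and 2 males of 32 weeks. The labels do not say that each library is a separate mouse, and if some are not, the p-values measure only the spread between libraries.

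Libraries held 10747941 to 22614408 counts in P95H/+ and 16842751 to 23010510 in WT, and the smallest was P95H/+ replicate 3. The replicate 3 libraries of both genotypes stood apart from the others. Set against the mean of replicates 1 and 2 of both genotypes, transcripts of low GC content (40% or less) had a median log2 difference of -1.19 in P95H/+ replicate 3 and -0.94 in WT replicate 3. For those above 55% it was 0.76 in P95H/+ replicate 3 and 0.48 in WT replicate 3. The members are therefore given per library and also without replicate 3 of both genotypes. The members' transcripts have a GC content of 47.8% (Fech) to 57.5% (Alad). Srsf2 itself had 315 to 342 CPM (counts divided by the library total, in parts per 1000000) in P95H/+ and 324 to 343 CPM in WT, and gene totals cannot tell the mutant base from the normal one. Kit, the receptor used in the sort, was at 476 to 548 CPM in P95H/+ and 482 to 532 CPM in WT.

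Each of the 4 adult globins is preceded by the short elements that define globin promoters. Whether these elements have a part in the levels given below was not tested. The lines give the 250 bases before the transcript start, 5′ to 3′, from RefSeq on GRCm38.p6. They are Hbb-bs at chr7:103827929-103828178 and Hbb-bt at chr7:103813924-103814173 (minus strand), Hba-a1 at chr11:32283422-32283671 and Alas2 at chrX:150547167-150547416 (plus strand), and, as a contrast, Alas1 at chr9:106247731-106247980 (minus strand). Capitals mark 5 strings searched on both strands. These are GATAA, the core of GATA factor sites, CACCC, bound by KLF1 and its relatives, the CCAAT box, the TATA element as ATATAA, and GCATGCGC, the core of the NRF1 site.
Hbb-bs: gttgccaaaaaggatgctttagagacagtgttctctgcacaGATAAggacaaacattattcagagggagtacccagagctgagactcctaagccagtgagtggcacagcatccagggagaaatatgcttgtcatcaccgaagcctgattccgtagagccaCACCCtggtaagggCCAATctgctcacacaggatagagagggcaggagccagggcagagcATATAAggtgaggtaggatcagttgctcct
Hbb-bt: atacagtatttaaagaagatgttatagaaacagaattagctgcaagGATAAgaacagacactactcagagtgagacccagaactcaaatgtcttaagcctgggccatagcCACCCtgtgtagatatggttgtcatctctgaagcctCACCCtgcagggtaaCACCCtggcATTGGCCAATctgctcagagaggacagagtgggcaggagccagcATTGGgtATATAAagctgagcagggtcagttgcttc
Hba-a1: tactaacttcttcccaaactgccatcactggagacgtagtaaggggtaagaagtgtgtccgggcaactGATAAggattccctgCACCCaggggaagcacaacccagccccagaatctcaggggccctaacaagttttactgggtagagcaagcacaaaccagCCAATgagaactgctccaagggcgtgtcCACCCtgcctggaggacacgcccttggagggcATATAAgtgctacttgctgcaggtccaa
Alas2: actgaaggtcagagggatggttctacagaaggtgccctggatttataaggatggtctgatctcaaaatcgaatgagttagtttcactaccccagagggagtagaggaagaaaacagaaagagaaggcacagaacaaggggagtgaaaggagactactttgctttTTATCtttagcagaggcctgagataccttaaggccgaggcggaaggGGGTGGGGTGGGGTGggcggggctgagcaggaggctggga
Alas1: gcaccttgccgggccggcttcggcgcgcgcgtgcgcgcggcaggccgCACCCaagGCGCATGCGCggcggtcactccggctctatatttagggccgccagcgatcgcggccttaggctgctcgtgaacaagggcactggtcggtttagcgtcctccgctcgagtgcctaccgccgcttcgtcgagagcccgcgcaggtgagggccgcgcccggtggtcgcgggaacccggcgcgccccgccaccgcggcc
Hbb-bs holds GATAA at -209, CACCC at -90, CCAAT at -76 and ATATAA at -30 from the start, and Hbb-bt holds each of these strings too. Hbb-bt has CACCC 3 times, and its CCAAT at -75 follows directly on a copy on the other strand at -80. Hba-a1 holds GATAA at -182, CACCC at -167 and -60, CCAAT at -88 and ATATAA at -28. Alas2 holds GATAA on the other strand at -86 and 3 copies of CACCC on the other strand between -40 and -26. Like Alas1, it has no CCAAT or ATATAA in this window. Alas1 also has no GATAA. It has 1 CACCC at -203, and the NRF1 core on both strands in overlapping copies that start at -195 and -193. Alad, not shown, holds CACCC at -47 and CCAAT at -174, each on the other strand, and no GATAA or ATATAA. Among 32851 RefSeq promoter windows of the same length, 22.6% hold GATAA, 52% CACCC, 33.8% CCAAT, 9.1% ATATAA and 2.26% GCATGCGC. A string match is a description of the letters, not a site of binding. The table matched 7 of the 8 genes. Alas1 and Alad each have 2 starts in it, and the window described is that of the start nearer the coding sequence. The window of the other start is not described here.

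The alpha and beta pairs are close duplicates. The windows before Hba-a1 and Hba-a2 share a run of 247 bases, while those before Hbb-bs and Hbb-bt are 70.9% identical when aligned. In the GENCODE M21 transcripts, 57% of the 150-base stretches of Hba-a1 also occur in Hba-a2, and 73.1% of those of Hba-a2 occur in Hba-a1. The shares were 45.6% for Hbb-bs and 50.7% for Hbb-bt. A read of 150 bases from such a stretch cannot by itself be placed on 1 gene. Its mate, which these shares leave out, may place it. How the authors' counting treated such reads is not given in the sources used here, so the split within a pair of genes is uncertain.

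Adult globin RNA was a small part of every library, and it varied more between the P95H/+ libraries than between genotypes. The 4 chains together made up 0.0204%, 0.0282% and 0.0909% of the counts in P95H/+ replicates 1, 2 and 3, against 0.0347%, 0.0466% and 0.0494% in WT replicates 1, 2 and 3. P95H/+ replicates 1 and 2 were the lowest of the 6 libraries and P95H/+ replicate 3 was the highest, with all WT libraries between them. In such bulk samples fewer erythroid cells and less globin RNA per cell cannot be told apart.

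Hbb-bs, a gene of the adult beta chain (ENSMUSG00000052305, on the minus strand of chromosome 7 from 103826534 to 103828096 in mm10), was the most abundant of the 8 genes per length of exon in every library. It had 106, 137 and 394 CPM in P95H/+ replicates 1, 2 and 3, against 189, 237 and 245 CPM in WT replicates 1, 2 and 3. The WT libraries lay close together, and the P95H/+ libraries lay on both sides of them. Its log2 fold change, P95H/+ over WT, was 0.02 (SE 0.49, edgeR quasi-likelihood adjusted p of 1), and the CPM means, 212 ± 158 in P95H/+ and 224 ± 30.5 in WT (SD, n = 3 each), had a ratio of 0.949. Hbb-bt, the other adult beta chain gene, at 103812524 to 103813996 on the same strand, had 19.5, 36.6 and 67.5 CPM in P95H/+ and 33.6, 53.0 and 43.8 CPM in WT. Its groups overlapped too, with P95H/+ replicate 3 highest and P95H/+ replicate 1 lowest.

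Hba-a1 (ENSMUSG00000069919, chromosome 11, 32283511 to 32284465, plus strand), an alpha chain gene, repeated this order with 60.4, 84.1 and 285 CPM in P95H/+ replicates 1, 2 and 3, against 98.7, 135 and 158 CPM in WT. Hba-a2 (ENSMUSG00000069917, 32296489 to 32297298), its duplicate, had 17.2, 24.6 and 162 CPM in P95H/+ and 25.6, 40.4 and 47.0 CPM in WT. For both genes P95H/+ replicates 1 and 2 were below all WT libraries and P95H/+ replicate 3 was above all of them. P95H/+ replicate 3 held 7.74 times the mean of P95H/+ replicates 1 and 2 for Hba-a2, 3.95 times for Hba-a1, 3.24 times for Hbb-bs and 2.41 times for Hbb-bt. The log2 fold changes were 0.23 (SE 0.58) for Hba-a1 and 0.95 (SE 0.82) for Hba-a2, each with an edgeR adjusted p of 1.

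Alas2 (ENSMUSG00000025270, chromosome X, 150547375 to 150570638, plus strand), the erythroid form of the first heme enzyme, followed the globins. It had 10.6, 14.2 and 48.6 CPM in P95H/+ replicates 1, 2 and 3, against 17.6, 25.0 and 27.7 CPM in WT, a log2 fold change of 0.15 (SE 0.57, edgeR adjusted p of 1). Again P95H/+ replicates 1 and 2 lay below every WT library and P95H/+ replicate 3 above. Apex2 and Mir3620 overlap Alas2 on the opposite strand, and 4930500F10Rik overlaps Alas1. Whether reads were assigned by strand is not given in the sources used here, so reads of these genes could enter the counts. All 8 genes are protein coding.

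**Figure D1:**
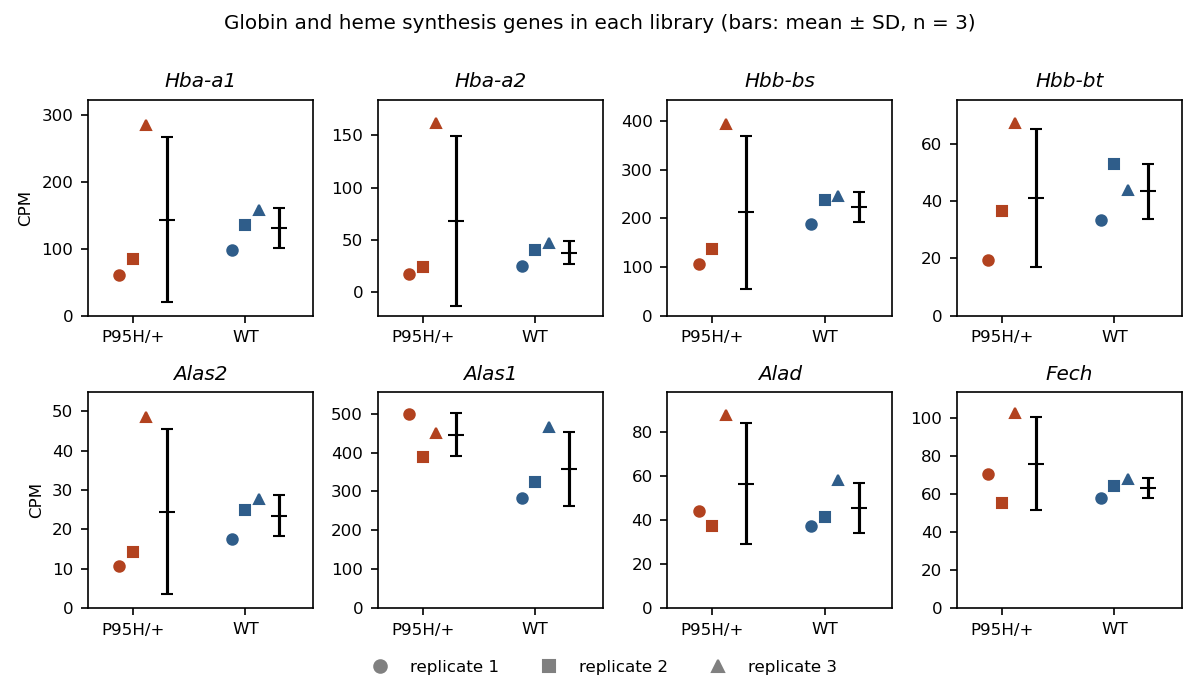
CPM of the 8 genes (vertical axes; they start at 0 except that of Hba-a2, whose SD bar reaches below 0) in the P95H/+ and WT libraries, with the replicate number as the marker shape and the mean ± SD of the 3 libraries as a bar. For the globins and Alas2, P95H/+ replicate 3 is the highest library, for example 394 CPM of Hbb-bs, while Alas1 has a different order, from 284 CPM in WT replicate 1 to 501 CPM in P95H/+ replicate 1.

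Of the remaining heme enzymes, Alas1 did not follow the globins. Alad and Fech shared with them the highest level in P95H/+ replicate 3, but not the order of the other libraries. Alas1 (ENSMUSG00000032786, chromosome 9, 106233455 to 106248654, minus strand), the form of the first enzyme made in all cells, had 501, 388 and 450 CPM in P95H/+ replicates 1, 2 and 3, against 284, 323 and 467 CPM in WT. All P95H/+ libraries were above WT replicates 1 and 2, and WT replicate 3 lay within the P95H/+ range. The means were 446 ± 56.3 CPM in P95H/+ and 358 ± 96.4 CPM in WT (SD, n = 3 each). Its log2 fold change of 0.40 (SE 0.24) did not pass (edgeR adjusted p of 1), and the value was 0.62 without WT replicate 3, with an adjusted p of 0.973.

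Alad (ENSMUSG00000028393, chromosome 4, 62509169 to 62519918, minus strand), which makes porphobilinogen in the second step, had 44.1, 37.4 and 87.8 CPM in P95H/+ replicates 1, 2 and 3, against 37.1, 41.1 and 58.1 CPM in WT. Fech (ENSMUSG00000024588, chromosome 18, 64452914 to 64490251, minus strand), the last enzyme, had 70.4, 55.2 and 103 CPM in P95H/+ and 57.8, 64.1 and 67.7 CPM in WT. In both genes P95H/+ replicate 3 was the highest library, while P95H/+ replicates 1 and 2 lay within the WT range for Alad and on either side of it for Fech. The log2 fold changes were 0.40 (SE 0.38) for Alad and 0.35 (SE 0.27) for Fech, each with an edgeR adjusted p of 1.

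Per kilobase of merged exons the order of the mean levels in P95H/+ was Hbb-bs (277 CPM per kb), Hba-a1 (177), Hba-a2 (102), Alas1 (72.3), Hbb-bt (58.6), Alad (30.2), Alas2 (10.2) and Fech (5.50). In WT the same means were 292 CPM per kb for Hbb-bs, 161 for Hba-a1, 61.8 for Hbb-bt, 58.0 for Alas1, 56.4 for Hba-a2, 24.3 for Alad, 9.75 for Alas2 and 4.57 for Fech. Over the 6 libraries Hbb-bs ranged from 139 to 513 CPM per kb and Hba-a1 from 74.4 to 352. Alas1 ranged from 46.0 to 81.1. Hba-a2 and Hbb-bt ranged from 25.7 and 27.8 upward to above the highest Alas1 level, so these 3 neighbours overlap and their order is not separated by the spread. Hba-a1 overlapped each of them, and Hbb-bs as well. Alad, from 19.8 to 46.9, also overlapped each of these 3 genes, and Alas2. Alas2, from 4.42 to 20.2, also overlapped Fech, from 3.99 to 7.43.

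Read against all genes, no member was called as differing between the genotypes with all 6 libraries. On simulated counts the test used recovered 3% of genes changed 2-fold, so a change of that size could be missed. With edgeR's two-sided quasi-likelihood test, 0 of the 8 members passed an adjusted p of 0.05, as did 0% of the 17144 genes tested. At an unadjusted p under 0.05 there were 0 of 8 members, against 2.11% of the genes tested, and the groups overlapped for all 8, while they did not overlap for 7.84% of the genes tested (1.91% with P95H/+ higher and 5.93% with P95H/+ lower). DESeq2 called 0 members and 8 genes in all. The 8 log2 fold changes of this fit were all above 0, with a median of 0.29 beside 0.02 over all genes tested, where 53.1% were above 0, but with library totals in place of TMM scaling Hbb-bs and Hbb-bt were at -0.08 each. With the replicate number as a block, or with limma voom, Hba-a1, Hbb-bs, Hbb-bt and Alas2 were below 0, at -0.11, -0.25, -0.16 and -0.17 in that order with the block. For all the globins and Alas2 that sign turned without P95H/+ replicate 3. Without that library the values were -0.80 for Hba-a1, -0.80 for Hba-a2, -0.83 for Hbb-bs, -0.59 for Hbb-bt and -0.86 for Alas2. Leaving out WT replicate 1 instead put Hbb-bs at -0.10, Hbb-bt at -0.16 and Alas2 at -0.02. Hbb-bt was also at -0.01 without WT replicate 3.

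Without replicate 3 of both genotypes, 2 libraries were set against 2. Those of P95H/+ were from females of 32 weeks, and those of WT from a female of 54 weeks and a male of 32 weeks. Genotype therefore cannot be told apart from age and sex in this fit, here and below. In it the members split into 2 sets. All 5 erythroid genes were lower in P95H/+, with log2 fold changes of -0.78 (SE 0.15) for Hbb-bs, -0.75 (SE 0.21) for Alas2, -0.67 (SE 0.24) for Hba-a1, -0.63 (SE 0.31) for Hba-a2 and -0.60 (SE 0.47) for Hbb-bt. Alas1 was higher, by 0.58 (SE 0.15), and Alad and Fech were at 0.09 (SE 0.12) and 0.08 (SE 0.14). The unadjusted p was under 0.05 for 4 members (Hbb-bs, Alas1, Alas2 and Hba-a1), beside 15.6% of 17371 genes. The adjusted p was 0.0996 for Hbb-bs, 0.157 for Alas1 and 0.161 for Alas2, so that 0 of 8 passed, beside 0.829% of the genes tested (0.645% lower in P95H/+). Between the replicate 3 libraries alone, with no test, P95H/+ held 3.44 times the WT level of Hba-a2, 1.81 times that of Hba-a1, 1.75 times that of Alas2, 1.61 times that of Hbb-bs and 0.964 times that of Alas1.

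**Figure D2:**
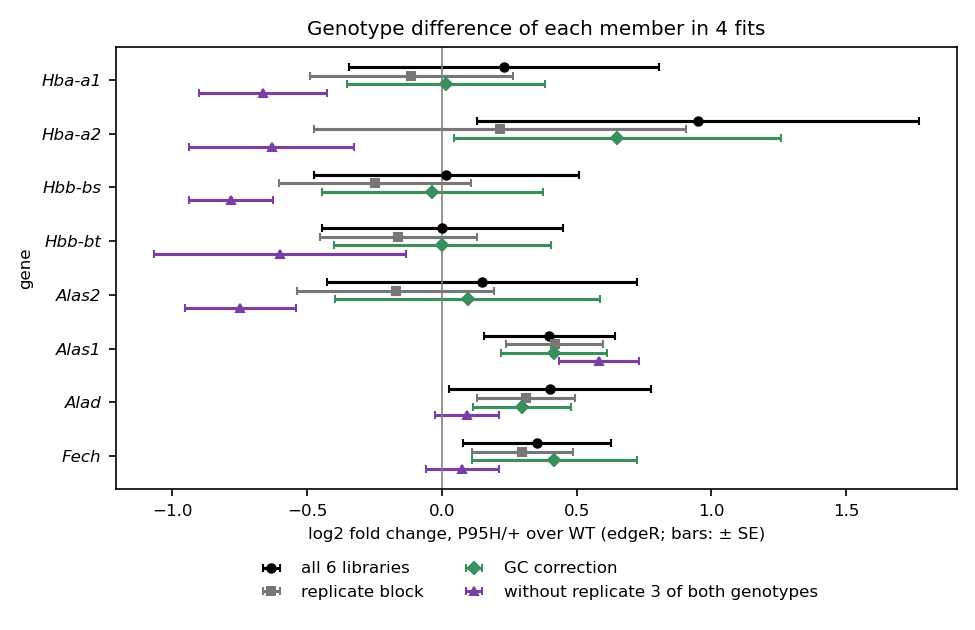
Log2 fold change of each gene, P95H/+ over WT, with its SE (horizontal axis), from the edgeR fits of all 6 libraries, with the replicate number as a block, with a correction for GC content, and without replicate 3 of both genotypes. The globins and Alas2 lie between 0.0019 and 0.95 with all 6 libraries and no further term, and between -0.78 and -0.60 without replicate 3. With the replicate block all of these except Hba-a2 lie below 0 (-0.25 to -0.11), and with GC correction Hbb-bs does (-0.04), while Alas1 lies above 0 in all 4.

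Ratios within a library do not depend on its depth. For the 3 shares tested (alpha of adult globin, Hbb-bt of beta, Alas2 of both forms) the p adjusted over them was 0.8 for each. The alpha chains made up 38.1%, 38.5% and 49.2% of the adult globin counts in P95H/+ replicates 1, 2 and 3, against 35.8%, 37.6% and 41.5% in WT. The difference of the means was 3.63 percentage points, which an exact two-sided permutation test gave p = 0.5, where 0.1 is the smallest p that 3 against 3 libraries can give. The share was highest in the replicate 3 library of each genotype, in which genes of high GC content also lay higher, and the alpha transcripts have a GC content of 57.4% and 57.2% against 52.2% and 50.8% for the beta transcripts. In the edgeR fit with GC correction the log2 fold changes were 0.01 for Hba-a1 and 0.65 for Hba-a2, against 0.23 and 0.95 without it. Those of Hbb-bs and Hbb-bt were -0.04 and 0.00044, against 0.02 and 0.0019. The part of GC content in the alpha share was not tested.

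Hba-a2 took 36.1% of the alpha counts in P95H/+ replicate 3 (95% Wilson interval 34.8% to 37.5%), against 22.1% and 22.6% in P95H/+ replicates 1 and 2 and 20.6%, 23.0% and 22.9% in WT. This share was examined after its values were seen. The other 5 libraries lie close together, and their Wilson intervals do not reach that of P95H/+ replicate 3. Intervals cover counting error only. Hbb-bt took 15.5%, 21.1% and 14.6% of the beta counts in P95H/+ replicates 1, 2 and 3, against 15.1%, 18.2% and 15.2% in WT (difference of means 0.904 points, exact permutation p = 0.8). Here the replicate 2 library was the highest in each genotype.

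Alas2 made up 2.08%, 3.54% and 9.74% of the summed Alas1 and Alas2 counts in P95H/+ replicates 1, 2 and 3, against 5.84%, 7.17% and 5.60% in WT. P95H/+ replicates 1 and 2 were below every WT library and P95H/+ replicate 3 was above, with Wilson intervals that do not meet those of the WT libraries. The difference of the means was -1.09 points (exact permutation p = 0.8), and it was -3.70 points without replicate 3 of both genotypes, where 2 against 2 libraries can give no p below 0.333.

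**Figure D3:**
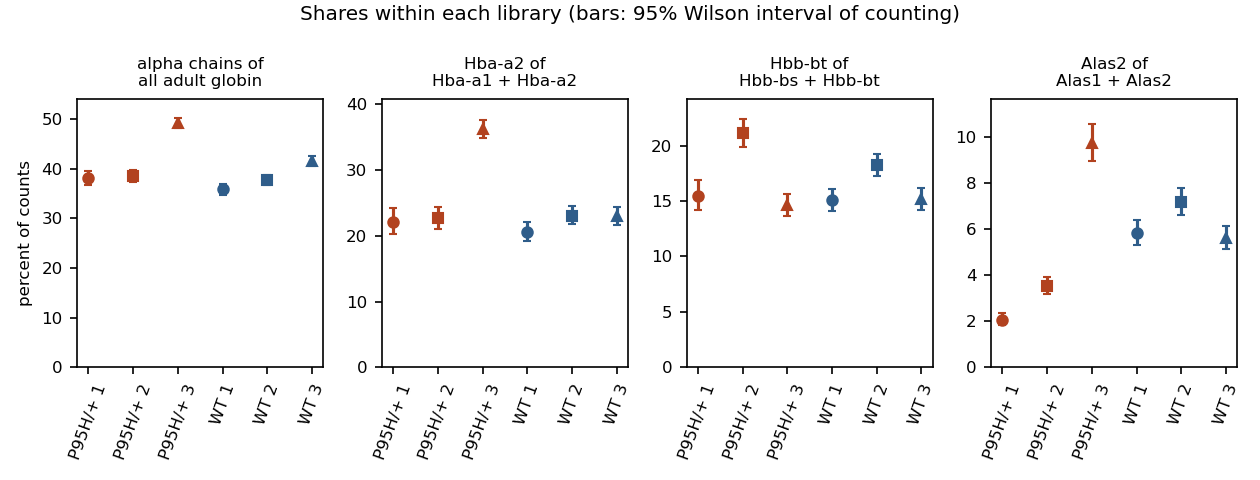
Share of counts within each library, in percent (vertical axes from 0), with 95% Wilson intervals of counting, P95H/+ libraries left of WT. P95H/+ replicate 3 has the highest alpha share (49.2%), Hba-a2 share (36.1%) and Alas2 share (9.74%), and P95H/+ replicate 2 the highest Hbb-bt share (21.1%).

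The pattern of Alas2 over the 6 libraries was nearest to those of Hba-a1 and Hbb-bs, and less near to those of the other globins. Levels were taken as log2(CPM + 1) less the gene's mean, and genes were ranked by the root mean square difference from a member among 13089 genes with a mean of at least 2 CPM. This difference counts the size of the deviations as well as their order over the libraries. For Alas2 the nearest gene was Hba-a1 (difference 0.05 on the log2 scale) and the second was Hbb-bs (0.11), followed by Fam46c (0.13), Osgin1 (0.16) and Ahdc1 (0.16), with Hbb-bt at rank 56, Hba-a2 at rank 758 and Alad at rank 887. For Hbb-bs the nearest were Fam46c (0.06), Alas2 (0.11), Ahdc1 (0.11), Osgin1 (0.12) and Trim10 (0.13), with Hba-a1 at rank 8, Hbb-bt at rank 56 and Hba-a2 at rank 3205.

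From Hbb-bs, Alad ranked 1281, Fech 2718 and Alas1 7253, so that by this measure Hba-a2 was farther from it than Alad and Fech were. Hba-a2 nevertheless had the same order of the 6 libraries as Hbb-bs. Its deviation in P95H/+ replicate 3 was larger, at 2.03 against 0.98 for Hbb-bs. Alas1 lay nearest to Nxpe4 (0.07), Mt1 (0.09), a metallothionein, Nhej1 (0.10), Bola1 (0.11) and Cela1 (0.11). Alad lay nearest to Cebpd (0.03), Celsr2 (0.04), Fam222b (0.05), Zfp692 (0.05) and Tmem115 (0.05), whose levels in replicate 3 of both genotypes were the highest, as those of Alad were. These are likenesses over 6 libraries that share the replicate 3 shift.

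The other heme enzymes analysed (Uros, Urod, Cpox and Ppox) had 0 of 4 past the test. Of these, 2 were positive and 2 negative, with a median log2 fold change of -0.0088, and of 0.08 without replicate 3. All 4 were highest in WT replicate 3 and 0 in P95H/+ replicate 3, where 7 of the 8 members were highest. Over all genes tested, 45.1% were highest in a replicate 3 library and 23.9% in that of P95H/+. Cpox, which makes protoporphyrinogen, had 99.8 ± 20.5 CPM in P95H/+ and 93.7 ± 34.0 CPM in WT (SD, n = 3 each), and its log2 fold change was 0.18 (SE 0.30). Uros, which makes uroporphyrinogen III, had 15.0 ± 2.34 CPM in P95H/+ and 18.0 ± 4.08 CPM in WT, and its log2 fold change was -0.18 (SE 0.25).

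Genes of mitochondrial transport and support of heme synthesis had 13 of 14 members positive, 0 past the test and a median of 0.14, and of 0.15 without replicate 3. Sfxn1, a mitochondrial serine transporter, had 182 ± 14.8 CPM in P95H/+ and 164 ± 8.76 CPM in WT (SD, n = 3 each), and Slc25a39, a mitochondrial carrier, had 129 ± 56.8 CPM in P95H/+ and 99.4 ± 32.6 CPM in WT. Iron uptake and sensing genes had 6 of 8 positive and a median of 0.10 (0.12 without replicate 3), with Snx3, a sorting protein of receptor recycling, at 0.25, where all P95H/+ libraries were above all WT libraries, and Steap3, an endosomal ferrireductase, at 0.54. Heme breakdown, export and sensing genes had 3 of 8 positive and a median of -0.10, while without replicate 3 it was 0.06 with 5 of 8 positive, with Eif2ak1, the heme-regulated kinase of translation, at 0.23 and Blvrb, a biliverdin reductase, at 0.35. In each of these lists 0 members passed edgeR's test, and 0 had an unadjusted p under 0.05. Of the embryonic and other globins, 4 of 12 had a row, Hbq1a, Hbq1b, Cygb and Ngb, at a summed level of at most 1.25 CPM in any library, and 0 were tested.

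Regulators of globin and heme genes had 12 of 14 members positive with all 6 libraries, a median of 0.26 and 0 past the test. Without replicate 3 the median was -0.04, with 6 positive and 8 negative. Ldb1, a bridging protein of the GATA1 and TAL1 complex, had 181, 179 and 350 CPM in P95H/+ replicates 1, 2 and 3, against 178, 178 and 199 CPM in WT. Sox6, a repressor of embryonic beta globin in mice, had 17.1, 16.3 and 19.9 CPM in P95H/+ replicates 1, 2 and 3, against 31.0, 24.8 and 20.1 CPM in WT. All its P95H/+ libraries were below all WT libraries, with a log2 fold change of -0.44 (SE 0.24, edgeR adjusted p of 1) that was -0.71 without replicate 3 (SE 0.13, adjusted p of 0.0454).

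Gata1 and Klf1, the main activators of globin genes, were named after their values were seen. Gata1 had 44.3, 38.6 and 99.0 CPM in P95H/+ replicates 1, 2 and 3, against 29.4, 33.1 and 67.9 CPM in WT. Klf1 had 43.0, 27.8 and 120 CPM in P95H/+ and 25.4, 35.0 and 62.6 CPM in WT. Both were highest in P95H/+ replicate 3 and second in WT replicate 3. Without replicate 3 the log2 fold change of Gata1 was 0.44 (SE 0.12, edgeR adjusted p of 0.122), with both P95H/+ libraries above both WT libraries. That of Klf1 was 0.26 (SE 0.31, edgeR adjusted p of 0.754), with P95H/+ replicate 2 below WT replicate 2.

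Red cell membrane and maturation genes were mixed. Of 20 genes tested, 16 were positive with a median of 0.28, and 0 passed, and without replicate 3 the numbers were 12 positive, 8 negative and a median of 0.16. Tspo2, a membrane protein of erythroid cells, had 21.1 ± 9.59 CPM in P95H/+ and 15.6 ± 7.08 CPM in WT, and Car2, a carbonic anhydrase, had 329 ± 78.3 CPM in P95H/+ and 279 ± 12.6 CPM in WT (SD, n = 3 each). Slc4a1, the band 3 anion exchanger of mature red cells, named after its values were seen, followed the globin order with 19.8, 24.9 and 220 CPM in P95H/+ replicates 1, 2 and 3, against 47.3, 50.3 and 64.3 CPM in WT. It was lower in P95H/+ without replicate 3, by a log2 fold change of -1.10 (SE 0.12, edgeR adjusted p of 0.0035), and its value with all 6 libraries was 0.82 (SE 0.88, adjusted p of 1).

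**Figure D4:**
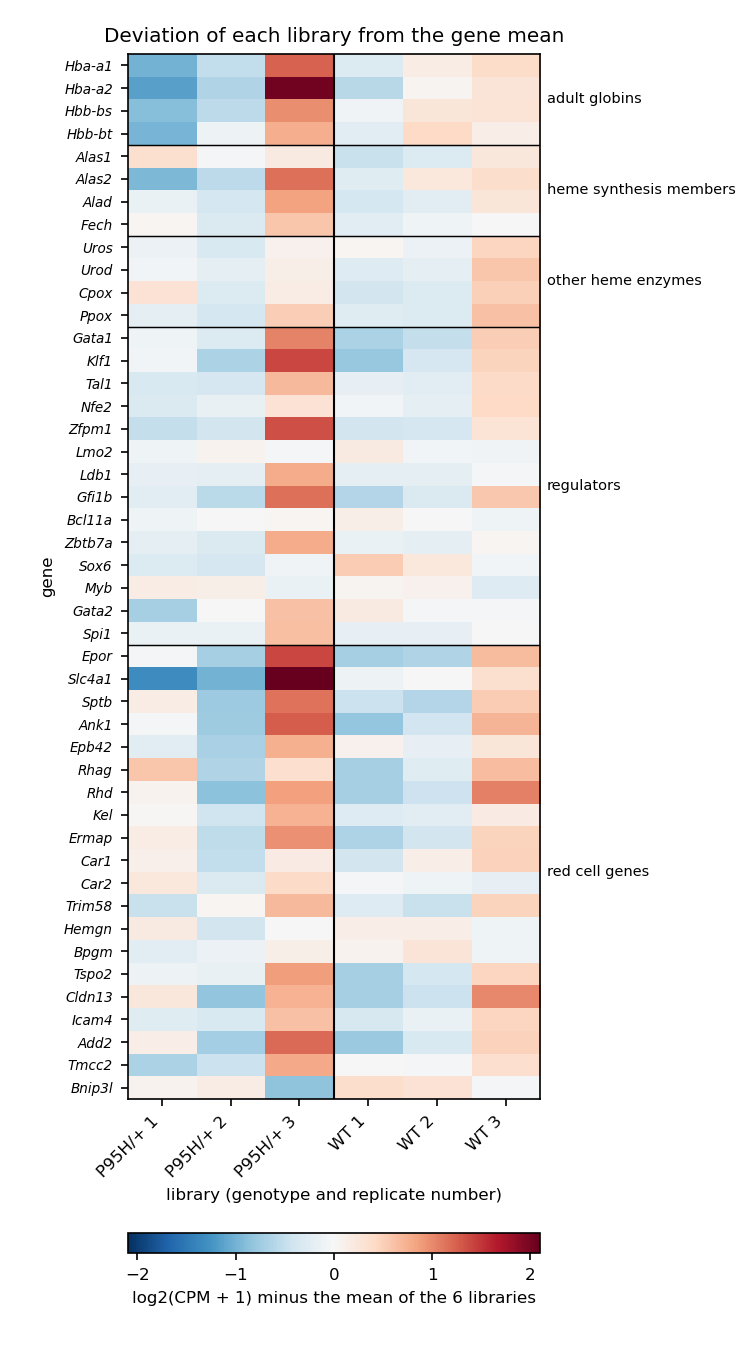
Level of each gene in each library as log2(CPM + 1) less the mean of the 6 libraries (colour), for the 8 members, the other heme enzymes, regulators and red cell genes (rows), with P95H/+ libraries left of WT. The globins, Alas2 and Slc4a1 are lowest in P95H/+ replicate 1 and highest in P95H/+ replicate 3, while the other heme enzymes are highest in WT replicate 3.

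Some markers of other cells were also highest in P95H/+ replicate 3, and their part in the globin result was not tested. Values for single markers are log2 fold changes, P95H/+ over WT. Later neutrophil markers summed to 313 to 1368 CPM in P95H/+ and 277 to 868 CPM in WT. All 7 had log2 fold changes above 0, and 5 of 7 were highest in P95H/+ replicate 3. Ngp and Ltf, granule proteins, were at 0.94 (SE 0.91) and 0.96 (SE 1.04). Granulocyte precursor markers summed to 8261 to 9352 CPM in P95H/+ and 6587 to 11271 CPM in WT, with Prtn3 at 0.30 and Ctsg at 0.14. Megakaryocyte markers summed to 116 to 252 CPM in P95H/+ and 121 to 190 CPM in WT, with Gp9 at 0.64 and Treml1 at 0.44, and Gp6 at 0 in P95H/+ replicate 1. B cell markers summed to 54.6 to 117 CPM in P95H/+ and 67.7 to 102 CPM in WT, with Cd79b at -0.27 and Ms4a1 at -0.35. Of the 5 B cell markers, 2 were above 0 and 2 were highest in P95H/+ replicate 3.

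T and NK cell markers were near 0, with sums of 2.92 to 6.42 CPM in P95H/+ and 4.16 to 14.4 CPM in WT and Cd3g at 0 in P95H/+ replicate 1, Ncr1 at -1.82 and Cd3d at -0.54. Macrophage markers summed to 71.1 to 133 CPM in P95H/+ and 64.9 to 106 CPM in WT, with Adgre1 at -0.36 and Vcam1 at 0.92. Mast cell and basophil markers summed to 146 to 264 CPM in P95H/+ and 143 to 319 CPM in WT, with Cpa3 at -0.66 and Prss34 at -0.29. The progenitor markers summed to 1228 to 1633 CPM in P95H/+ and 1267 to 1784 CPM in WT, with Ly6a at -0.50 and Flt3 at -0.37. In these 8 lists 0 genes passed edgeR's test. Without replicate 3, where the globins and Alas2 were below 0, so were 5 of 5 B cell markers (median -0.90), 4 of 4 T and NK cell markers (-1.74), 6 of 7 later neutrophil markers (-1.02), 3 of 4 mast cell and basophil markers (-0.38), 5 of 7 macrophage markers (-0.12) and 7 of 8 progenitor markers (-0.23). The 4 granulocyte precursor markers were above 0 (median 0.38), as were 4 of 6 megakaryocyte markers (0.04). Later neutrophil markers summed to 443 and 313 CPM in P95H/+ replicates 1 and 2, against 868 and 277 CPM in WT replicates 1 and 2. Both P95H/+ sums were thus above that of WT replicate 2. For T and NK cell markers these sums were 3.69 and 2.92 CPM against 14.4 and 4.55 CPM. For B cell markers they were 55.4 and 54.6 CPM against 77.6 and 102 CPM. In these lists 0 genes passed the adjusted test without replicate 3 either, and the part of these cells in the globin values was not tested.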

How the data were processed

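RNA of 3 P95H/+ and 3 WT libraries was depleted of ribosomal RNA and sequenced as paired 150-base reads from stranded libraries, per the labels' protocols. The submitters' processing notes name the build mm10 and, with no role or order, STAR 2.5.3a, Subread 1.5.1 with featureCounts, Picard 1.96, limma, edgeR, cutadapt and Trim Galore. The authors deposited raw counts for 26027 genes, and CPM tables that equal each count over its library's total, or over that of 15466 kept genes, within 5.0e-04. CPM here are counts over the library total. Of the symbols, 24 had become dates and 63 were blank, and 44 were replaced from GENCODE M21.

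Genotypes were compared over all 17144 genes kept by filterByExpr with edgeR 4.0.16 in R 4.3.3 (TMM, robust quasi-likelihood F test, two-sided, Benjamini-Hochberg, threshold 0.05). SE follows from the F statistic. Shares were compared by exact permutation. DESeq2 1.42.0, limma 3.58.1 voom, other scalings and filters, sex, the replicate number or a GC spline (4 degrees of freedom) in the fit, and left-out libraries were alternatives. The members and gene lists were chosen with earlier results of these data known, and some listed genes are not reported here. The text names all members, Srsf2, the 2 genes of smallest p in each list, and the 5 genes nearest in pattern to 4 members. Deviations from group means correlated above 0.1 within each replicate number (0.372, 0.348 and 0.613), so the block is reported, although crossed pairs of numbers 1 and 2 reached 0.463 and 0.386. Because replicate 3 stood apart in both genotypes, these correlations cannot decide whether numbers 1 and 2 pair libraries. On simulated counts the test recovered 3% of genes changed 2-fold and 76% changed 4-fold.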

Additional observations from a re-analysis of the deposited data

Results flagged for a closer look

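The genes Hba-a1, Hba-a2, Hbb-bs and Alas2 went opposite ways in the sexes, and the difference was examined after the values were seen. In females both P95H/+ libraries (replicates 1 and 2) lay below the WT library (replicate 1), and in males the P95H/+ library (replicate 3) lay above both WT libraries (replicates 2 and 3). The difference of the log2 fold changes, male minus female, was 1.47 for Hba-a1, 2.24 for Hba-a2, 1.40 for Hbb-bs and 1.44 for Alas2. In an edgeR fit with a term for this difference, the adjusted p were 0.612, 0.356, 0.581 and 0.612, so none of the 4 passed. The only P95H/+ male is the replicate 3 library that stands apart in GC content, and the only WT female is the mouse of 54 weeks, so sex cannot be told apart from these.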

How the results depend on the processing

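The members called stayed at 0 in all 17 alternatives, and the genes called were 8 with DESeq2, 1 with the replicate block, 1 with the replicate block and GC correction, 144 without replicate 3 of both genotypes and 0 to 1 with single libraries left out. Of 136 member values, 104 kept their sign and 32 turned. In order Hba-a1, Hbb-bs, Hbb-bt and Alas2 were -0.13, -0.25, -0.19 and -0.23 with limma voom, -0.11, -0.25, -0.16 and -0.17 with the replicate block, -0.14, -0.24, -0.15 and -0.16 with the block and GC correction, and -0.67, -0.78, -0.60 and -0.75 without replicate 3, where Hba-a2 was -0.63. Hbb-bs and Hbb-bt were -0.08 each with library totals and -0.01 and -0.02 without a filter, and Hbb-bs was -0.04 with GC correction. With single libraries left out the log2 fold changes ran from -0.80 to 0.57 for Hba-a1, -0.80 to 1.38 for Hba-a2, -0.83 to 0.32 for Hbb-bs, -0.59 to 0.32 for Hbb-bt, -0.86 to 0.49 for Alas2 and -0.10 to 0.64 for Alad, the lowest each without P95H/+ replicate 3. Over the same fits Alas1 (0.25 to 0.62) and Fech (0.05 to 0.55) stayed above 0. Those of genes beside the members ran from -0.09 to 1.05 for Steap3, -0.0041 to 0.72 for Blvrb, -0.07 to 0.32 for Ctsg, -0.80 to 1.76 for Ngp, -1.30 to 1.76 for Ltf, -1.51 to 0.73 for Ms4a1, -1.22 to 1.26 for Slc4a1 and -0.01 to 1.03 for Gata1. Without replicate 3 of both genotypes Ngp was -1.02, Ltf -1.50, Slc4a1 -1.10 and Sox6, then past the threshold, -0.71. Slc4a1 was -0.17 with voom and -0.14 with the block, with or without GC correction. Differences of shares ran from -1.11 to 2.13 points for Hbb-bt, the lowest without P95H/+ replicate 2, from -3.4 to 0.431 for Alas2, the highest without P95H/+ replicate 1, and from 0.0123 to 5.55 for alpha globin, the lowest without P95H/+ replicate 3. The cause of these changes was not tested. DESeq2 gave no p for Hba-a2 and Slc4a1. Globin counts of 372 to 5012 a library limit precision less than the spread between libraries does.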
